A study of Ovis aries with 6 samples.

Results

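Pericytes are the mural cells that wrap capillaries, and in the ovary of Hu sheep they were picked out here from single-cell RNA counts by the markers RGS5, KCNJ8, ABCC9 and HIGD1B. A UMI (unique molecular identifier) stands for 1 captured RNA molecule, and each barcode stands for 1 droplet, usually 1 cell. Barcodes were retained with at least 1000 UMI and at most 10% of their UMI in mitochondrial genes. A retained barcode entered the RGS5 gate with at least 5 UMI of RGS5 and at least 3 times as many RGS5 UMI as PECAM1, KDR and PTPRC UMI together. Within that gate a barcode was a pericyte when its summed KCNJ8, ABCC9 and HIGD1B UMI (sum A) were at least 1 and above its summed FHL5, KCNA5, NTRK3 and CLDN10 UMI (sum B). The rule found 1064 pericytes among 38465 retained barcodes (2.77%), which was 74.5% of the 1428 barcodes in the RGS5 gate. The rest of the gate was 146 smooth muscle-type cells with B above A, 168 with neither sum above 0, and 50 with equal sums of at least 1.

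The cells came from 6 ewes in estrus of the Hu breed (Ovis aries), a prolific sheep of China. Each ewe gave 1 ovary and 1 library (Chromium Single Cell 3′ v3, polyA RNA). The high-litter group (HLS, n = 3) had litters of at least 3 lambs, and the low-litter group (LLS, n = 3) had fewer than 2. The labels named no treatment, genotype or age. Ovaries were dispersed with enzymes, so each share below is a share of the cells recovered, and fewer pericytes in an ovary cannot be told apart from fewer pericytes released from it.

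Pericytes lie within the basement membrane of capillaries and small venules and touch the endothelium directly. Endothelial cells recruit them with PDGF-B, which acts on the receptor PDGFRB, and hold them through Notch and angiopoietin signals, while the KCNJ8 and ABCC9 proteins form the ATP-sensitive potassium channel that sets their membrane potential. In the ovary, capillaries grow and regress with each cycle around follicles and corpora lutea, and pericytes are part of that growth.

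The pericytes were unevenly spread over the ewes. They numbered 158, 241 and 54 in HLS1, HLS2 and HLS3, and 265, 150 and 196 in LLS1, LLS2 and LLS3, and values below keep this order of ewes. Their shares of retained barcodes were 2.79% (95% Wilson interval 2.40 to 3.26), 3.26% (2.88 to 3.69) and 0.927% (0.711 to 1.21) in HLS and 4.01% (3.56 to 4.51), 2.77% (2.36 to 3.24) and 2.60% (2.26 to 2.98) in LLS. HLS3 lay below the other 5 ewes with an interval clear of theirs, and the other HLS ewes lay within the LLS range; these intervals cover counting error only. The share was 2.33% ± 1.23 in HLS and 3.12% ± 0.772 in LLS (SD, n = 3 each), a difference of −0.797 percentage points that was not larger than the spread between ewes (exact permutation test, two-sided, p = 0.6). It was −0.0969 percentage points without HLS3, −0.354 without LLS1 and −1.26 without HLS2. With 3 ewes against 3 the exact permutation test cannot go below p = 0.10. Among barcodes of the RGS5 gate the pericyte share was 76.0, 80.9 and 55.1% in HLS and 90.4, 62.5 and 67.4% in LLS, and the groups overlapped (difference −2.79 percentage points, exact permutation test, two-sided, p = 0.9). The direction of that second difference rested on single ewes: it was 4.98 percentage points without HLS3 and 5.72 without LLS1.

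**Figure D1:**
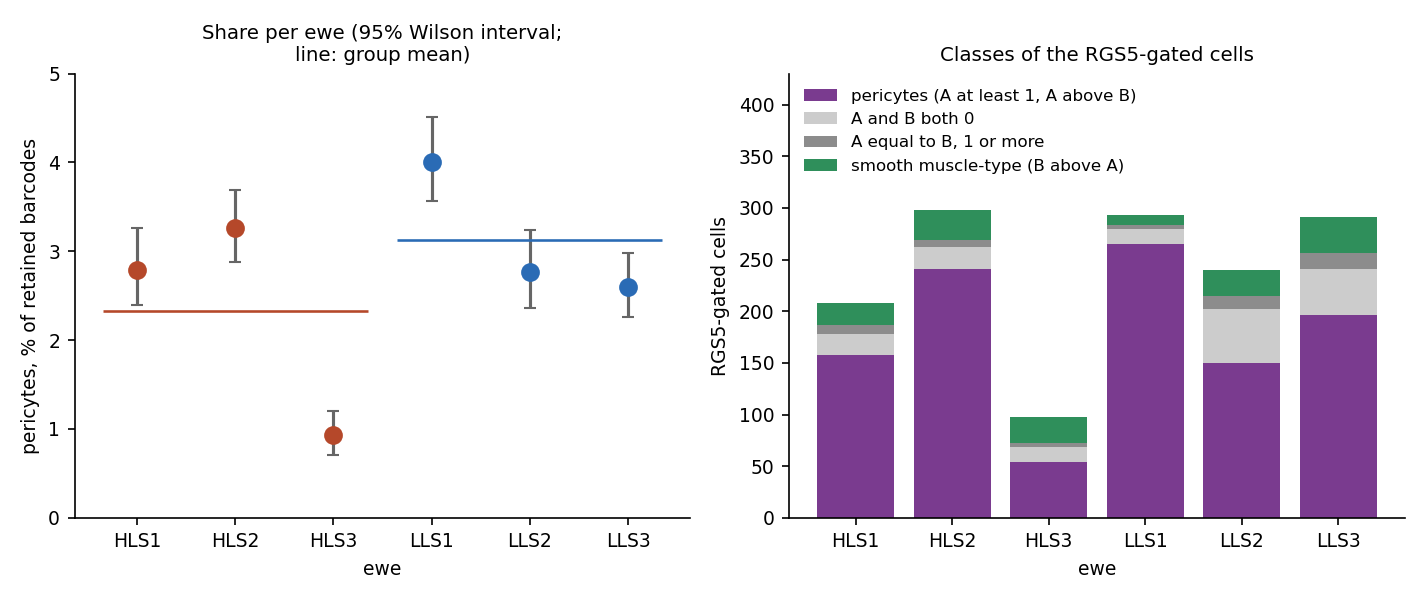
Left, the share of pericytes among retained barcodes (percent) for each ewe, with 95% Wilson intervals. Right, the number of barcodes of the RGS5 gate in each ewe, split into pericytes, smooth muscle-type cells and the barcodes with equal sums. HLS3 has the lowest share, 0.927%, and LLS1 the highest, 4.01%.

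Each ewe gave enough RNA for a sum over its pericytes. The summed UMI were 1271766, 1902917 and 641345 in HLS and 2637211, 825429 and 1415030 in LLS, out of library totals between 43329214 and 75549906 UMI. Median UMI per pericyte were 6058.5, 6735 and 6437.5 in HLS and 9253, 4702 and 4507.5 in LLS, with LLS1 the deepest. The 146 smooth muscle-type cells, with 10 to 35 per ewe, gave 773253 UMI against 8693698 from pericytes, so each value for that class rests on far fewer molecules. No pericyte barcode was shared between libraries, and 156 retained barcodes were shared over the 15 pairs of libraries.

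The markers that made the gate were read first, as a description. RGS5, a regulator of G protein signalling and the most used pericyte marker, stood at 19.3, 37.2 and 29.7 UMI per 10000 UMI in the pericytes of HLS and 37.0, 53.8 and 33.0 in LLS, against a mean of 30.7 ± 9.29 (SD, n = 6) in smooth muscle-type cells, 0.0586 in endothelial cells and 0.117 in stromal cells. RGS5 was high in both mural classes, and the sums A and B made the split between them. KCNJ8, the pore of the potassium channel, stood at 2.02, 2.52 and 1.93 in HLS and 2.94, 1.95 and 1.53 in LLS. Its partner ABCC9 stood at 1.40, 2.10 and 2.21 in HLS and 3.85, 2.30 and 2.61 in LLS. HIGD1B, a small mitochondrial protein of the hypoxia-induced family, was the most variable of the markers, at 3.85, 5.52 and 0.92 in HLS and 3.57, 3.71 and 2.07 in LLS. These levels and all those below are UMI per 10000 UMI summed over the cells of a class in 1 ewe. They are not corrected for gene length, so they compare classes and ewes, not genes.

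Most members carried more than the least the rule allowed. The sum A was at least 2 in 928 pericytes (87.2%) and at least 5 in 548 (51.5%), and 136 (12.8%) entered on a single UMI. HIGD1B was detected in 825 (77.5%), ABCC9 in 734 (69.0%), KCNJ8 in 680 (63.9%) and all 3 in 388 (36.5%). Endothelial cells, which should lack these genes, showed few of them. Every pericyte was chosen for at least 1 UMI of these genes, so a higher share in pericytes follows from the rule. The shares are given as a description only. Thinned to 2000 UMI per cell, so that depth was equal, KCNJ8 was found in a mean of 32.5% of pericytes and 0.08% of endothelial cells, ABCC9 in 38.3% and 0.44%, and HIGD1B in 45.2% and 0.11%. Unthinned, the same shares were 61.3% and 0.37%, 69.2% and 2.30%, and 75% and 0.68%, at median depths of 6016 and 10488.5 UMI. Thinning left out 31 of 1064 pericytes and 65 of 13376 endothelial cells.

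Barcodes just inside and just outside the threshold differed in degree. The type IV collagen gene COL4A1 stood at 64.6 in pericytes with A of at least 2, at 39.2 in those with A of 1, at 23.8 in the 168 left out with both sums at 0, and at 16.8 in smooth muscle-type cells, pooled over ewes. MYH11, the heavy chain of smooth muscle myosin, went the other way, with 5.64, 7.37, 9.11 and 32.6 in the same order. Median depth was 6423.5, 3999.5, 3667.5 and 3831 UMI, so the pericytes with 1 UMI of A were also the shallower ones. The ewes were not equally represented: LLS1, where COL4A1 was highest, gave 249 of the 928 cells with A of at least 2 and 15 of the 168 with both sums at 0.

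Endothelial and immune markers were low in pericytes against all retained barcodes. Granulosa and theca markers were less clearly so, and fibroblast and stromal markers were not. The gate itself limits PECAM1 and KDR of the endothelial list and PTPRC of the immune list. The 17 endothelial markers, all of which had a UMI in pericytes, summed to 3.48 ± 1.79 (SD, n = 6) in pericytes and 30.8 over all retained barcodes, and EMCN was the most abundant of them at 0.946. The defining endothelial gene CDH5 stood at 0.0793 ± 0.0334 in pericytes and 3.95 ± 1.03 in endothelial cells. Immune markers summed to 0.851 ± 0.404, led by SRGN at 0.302, against 8.50 over all retained barcodes. Markers of granulosa cells summed to 4.50 and those of theca cells to 3.29, against means of 7.85 and 7.39 over all retained barcodes, although the theca list in LLS1 was higher in pericytes (4.285 against 3.907) and the granulosa list in HLS1 was close (6.495 against 6.665). Fibroblast and stromal markers were at 55.4 ± 30.8 in pericytes and 50.2 over all retained barcodes, led by the collagen gene COL1A1 at 22.6. HLS3 alone stood at 116.4 for this list and the other 5 ewes at most at 56.26. The counts of genes called between classes without HLS3 are given below. The defining stromal gene PDGFRA stood at 0.245 ± 0.220 in pericytes, against 3.40 ± 0.936 in the stromal gate and no UMI in the endothelial gate, which required it to be 0.

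The pericytes of HLS2 and LLS1, 1 ewe of each group, were the most alike of any 2 ewes and shared high levels of a set of genes. The correlation of log2 levels between these 2 was 0.9693, and the other pairs of ewes gave between 0.8817 and 0.9391, which is a description across genes. HLS2 and LLS1 also had the largest summed UMI and the highest median UMI per pericyte. The part of depth in this correlation was not tested. HLS2 correlated with the other 4 ewes at 0.9138 to 0.9391. SPP1, the secreted matrix protein osteopontin, stood at 0.181, 15.7 and 0.156 in HLS and 10.2, 0.509 and 0.883 in LLS. HLS2 and LLS1 were the highest of the 6, and the ranges of the 2 and the other 4 did not overlap.

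The same ewes were highest for several other genes of pericytes. HGF, the hepatocyte growth factor, stood at 0.283, 2.11 and 0.14 in HLS and 3.03, 0.812 and 0.438 in LLS. CD34, a surface glycoprotein of endothelial and progenitor cells, stood at 0.228, 1.83 and 0.296 in HLS and 2.02, 0.424 and 0.389 in LLS. For both genes the levels in HLS2 and LLS1 were above those of the other 4 ewes. HIF1A, the hypoxia-inducible factor, stood at 0.841, 2.82 and 0.982 in HLS and 4.15, 1.10 and 0.989 in LLS. The immediate early gene FOS was at 24.6, 57.7 and 27.6 in HLS and 53.2, 29.7 and 30 in LLS, while PTGDS, a prostaglandin D synthase, was lowest in these ewes at 7.05, 1.69 and 3.90 in HLS and 1.19, 8.93 and 4.21 in LLS.

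Part of this pattern was also present outside pericytes. In endothelial cells SPP1 stood at 3.94 in HLS2 and 1.10 in LLS1 and at 0.649 or less in the other 4 ewes, and CD34 at 7.65 and 8.20 against 3.54 or less. HGF in endothelial cells did not follow it, at 0.0110 in HLS2 and 0.0138 in LLS1 against 0.0357 in LLS2, and neither did FOS, at 28.6 and 21.1 against 34.0 in HLS3. The labels do not tell these 2 ewes from the others of their groups, and a comparison of HLS with LLS holds 1 of them on each side. The total of genes called in each comparison below is also given without both ewes, and the counts within gene lists are not.

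**Figure D2:**
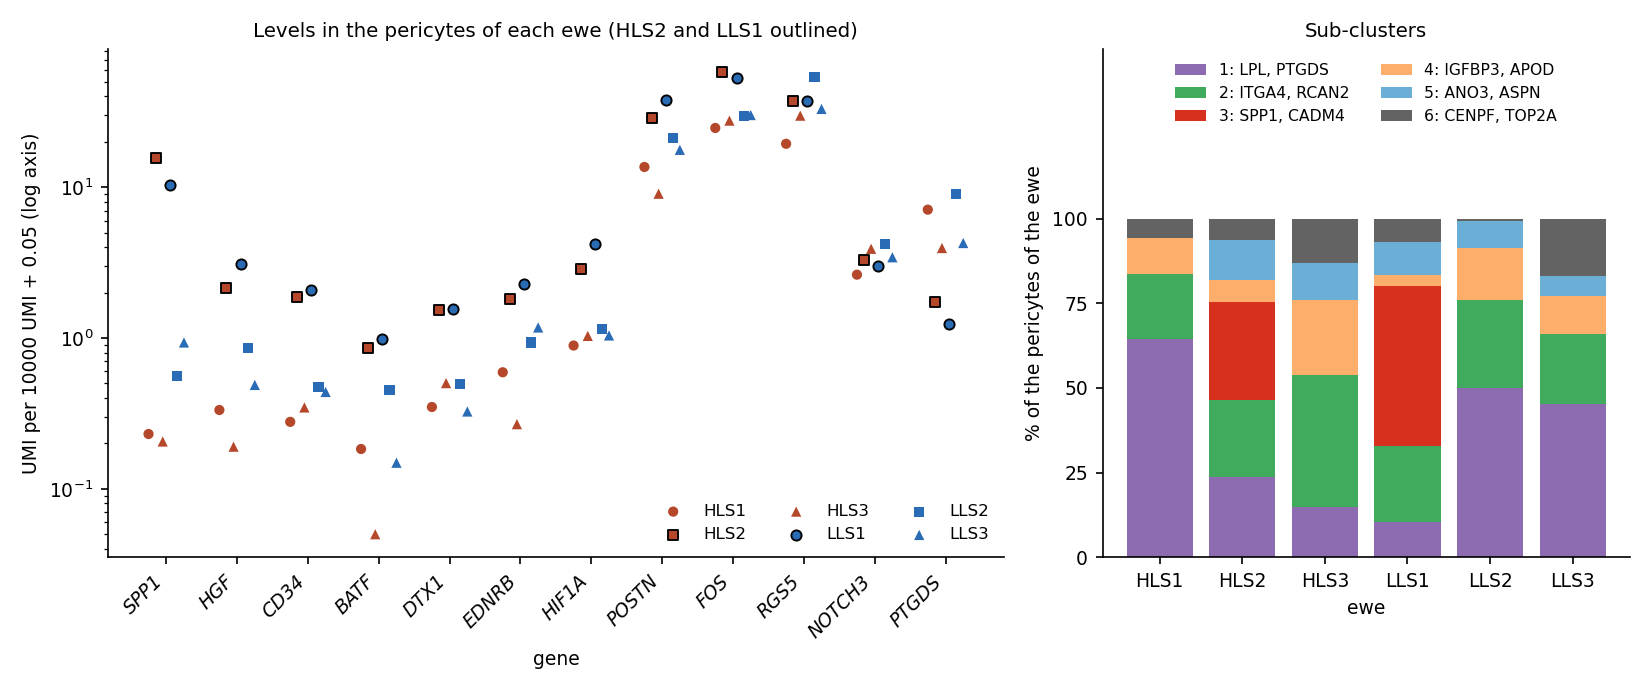
Left, levels of 12 genes in the pericytes of each ewe (UMI per 10000 UMI + 0.05, log axis), with HLS2 and LLS1 outlined. Right, the share of each ewe's pericytes in 6 sub-clusters (percent). SPP1, HGF and CD34 are highest in HLS2 and LLS1, and sub-cluster 3 is found in those ewes only.

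When the pericytes were clustered among themselves, 6 sub-clusters came out, given here as a description because the same genes made them. Sub-cluster 3 held 195 cells, 70 from HLS2 (29.1% of its pericytes) and 125 from LLS1 (47.2%), and none from the other ewes. Its SPP1 level was 20.2 against 2.32 in the other pericytes, and HGF 4.48 against 0.619, at a median depth of 10850 UMI. A cluster that comes from 2 ewes cannot be told apart from those ewes.

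The other sub-clusters were shared by 5 or 6 ewes. Sub-cluster 1, with 359 cells, was led by LPL, PTGDS, WNT6, ASPN and IGFBP5 and held 64.6% of the pericytes of HLS1 but 10.6% of those of LLS1. Its median depth was 3858 UMI, the lowest of the 6. Sub-cluster 2, with 244 cells, was led by ITGA4, RCAN2, NRGN, ANGPT2 and ACTA2. Sub-cluster 4, with 98 cells from all 6 ewes, had COL1A1 at 68.0 against 11.3 in the other pericytes and listed PDGFRA, the stromal gate gene, among its leading genes. Sub-cluster 5, with 85 cells and none from HLS1, was led by ANO3, ASPN and PRRX1. Sub-cluster 6, with 83 cells, held the dividing cells: TOP2A, which untangles DNA in division, stood at 11.6 against 0.137, and MKI67 at 3.88 against 0.0332. It held 33 cells from LLS3 and 1 from LLS2.

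The pericytes were compared first with the smooth muscle-type cells of the same RGS5 gate. The counts hold no vessel size or position, and smooth muscle with fewer than 5 UMI of RGS5 is outside this class. Over 14126 genes tested, with each ewe as a block and the genes of any gate left out, 1610 differed between the 2 classes (11.4%, edgeR quasi-likelihood test, Benjamini-Hochberg adjusted p under 0.05), of which 1178 were higher in pericytes (8.34%) and 432 lower (3.06%). This split depended on scaling. With total UMI in place of TMM factors 529 genes were higher (3.74%) and 643 lower (4.55%), and with DESeq2 553 and 789. The median of all genes moved from 0.27 to 0.08 on the log2 scale with total UMI, so every log2 difference below is relative to the median of all genes tested, ± SE. Each p is adjusted over all genes and tests the TMM-scaled difference before that median is subtracted, so near the threshold a p need not follow from the value and SE beside it. Without HLS2 and LLS1, 1115 genes passed, 914 of them among the 1610, and 1029 passed without HLS3 alone and 1038 without LLS3 alone. With at least 10 UMI of RGS5 per cell 936 of 14598 genes passed. At this setting LLS1 had 3 smooth muscle-type cells, below the minimum of 5 for a sum. The fit therefore held no smooth muscle-type sum of LLS1. The calls named below for NDUFA4L2, LAMC3, ACTA2, ATP2A2, GUCY1B1, ACKR3, NOTCH1, HEYL, DTX1, ITGA7, NR4A1 and PLAC9 did not hold there. With cells thinned to 2000 UMI 803 of 10734 genes passed, and the calls for S1PR3, GPRC5C, ITPR1, NPY1R, ACKR3, HEYL and NR4A1 did not hold. Sums are of the cells in these gates. The p-values rest on the spread left between sums after the ewe block. That spread is estimated over all 4 classes together, so the larger endothelial and stromal sums help to set it.

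The pericyte side of this comparison was led by receptors, collagens and a secreted growth factor. PDGFRB, the receptor through which endothelial PDGF-B holds pericytes, stood at 2.31, 4.67 and 3.45 in HLS and 4.89, 4.65 and 3.50 in LLS, and in smooth muscle-type cells at 0.755, 1.01 and 1.41 and at 0.971, 1.46 and 2.30. The classes did not overlap, and the log2 difference was 1.49 ± 0.28 (adjusted p = 0.00026). CD248, endosialin, a surface protein of growing vessels, stood at 0.668, 1.95 and 1.15 in HLS and 2.49, 0.739 and 0.905 in LLS, and at 0.153 or less in smooth muscle-type cells of all ewes, with a log2 difference of 3.91 ± 0.62 (adjusted p = 0.00011). It was higher in 6 of 6 ewes.

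Of 21 other mural markers tested, 9 were higher in pericytes and none lower, and without TMM factors 8 and 1. Among all genes the shares were 8.34% and 3.06%, and 3.74% and 4.55% without TMM factors. The median log2 difference was 0.50 against 0 over all genes. Besides PDGFRB and CD248 the 9 higher markers included NDUFA4L2, a mitochondrial subunit of pericytes, at 1.72 ± 0.50 (adjusted p = 0.011). The transcription factor TBX3 was higher by 0.80 ± 0.25 (adjusted p = 0.0059). The sphingosine receptor S1PR3 was higher by 0.67 ± 0.19 (adjusted p = 0.0021). GPRC5C, GJC1 and LAMC3 also passed, but GPRC5C and GJC1 did not without HLS2 and LLS1 (adjusted p = 0.0537 and 0.0523) and LAMC3 did not without LLS3. NOTCH3, the Notch receptor of mural cells, stood at 3.36 ± 0.579 in pericytes and 2.86 ± 0.632 in smooth muscle-type cells, and its difference did not pass (0.21 ± 0.21, adjusted p = 0.15). MCAM and CSPG4, surface proteins of mural cells, did not pass either, at −0.49 ± 0.23 (adjusted p = 0.63) and 0.92 ± 0.41 (adjusted p = 0.067).

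Most of the contractile genes tested were lower in pericytes. MYH11 stood at 3.66, 5.01 and 5.68 in HLS and 6.39, 6.93 and 6.97 in LLS, and in smooth muscle-type cells at 23.2, 30.4 and 34.7 and at 52.2, 41.6 and 31.1, a log2 difference of −2.64 ± 0.23 (adjusted p = 5.4e-07). MYOCD, the coactivator that switches on smooth muscle genes, stood between 0.0105 and 0.0935 in pericytes and between 0.377 and 1.94 in smooth muscle-type cells, a difference of −4.55 ± 0.59 (adjusted p = 4.7e-05). Neither gene overlapped between classes. Of 28 contractile genes tested, 17 were lower and 2 higher, with a median log2 difference of −1.70. Without TMM factors 19 were lower and 1 higher. Among all genes 3.06% were lower and 8.34% higher, and 4.55% and 3.74% without TMM factors. CNN1, calponin, was lower by −3.12 ± 0.51 (adjusted p = 0.00075), the myosin light chain MYL9 by −1.97 ± 0.20 (adjusted p = 6.3e-06), PLN, the phospholamban that restrains the calcium pump, by −1.86 ± 0.19 (adjusted p = 6.3e-06) and the small heat shock protein CRYAB by −3.06 ± 0.40 (adjusted p = 8.2e-05).

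Pericytes still carried smooth muscle actin. ACTA2 stood at 11.9, 10.6 and 21.2 in HLS and 14.5, 23.3 and 32.1 in LLS, and in smooth muscle-type cells at 61.8, 35 and 39.3 and at 57.0, 39.1 and 54.0. The ranges did not overlap, and the log2 difference was −1.38 ± 0.32 (adjusted p = 0.027). This call did not hold when any 1 HLS ewe was left out, or with at least 10 UMI of RGS5 per cell. TAGLN, transgelin, was also lower, with −1.84 ± 0.33 (adjusted p = 0.0027), at 15.2 ± 4.77 in pericytes and 54.4 ± 20.1 in smooth muscle-type cells (SD, n = 6). The summed level of the smooth muscle marker list was 43.9 ± 14.7 in pericytes and 11.3 over all retained barcodes.

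**Figure D3:**
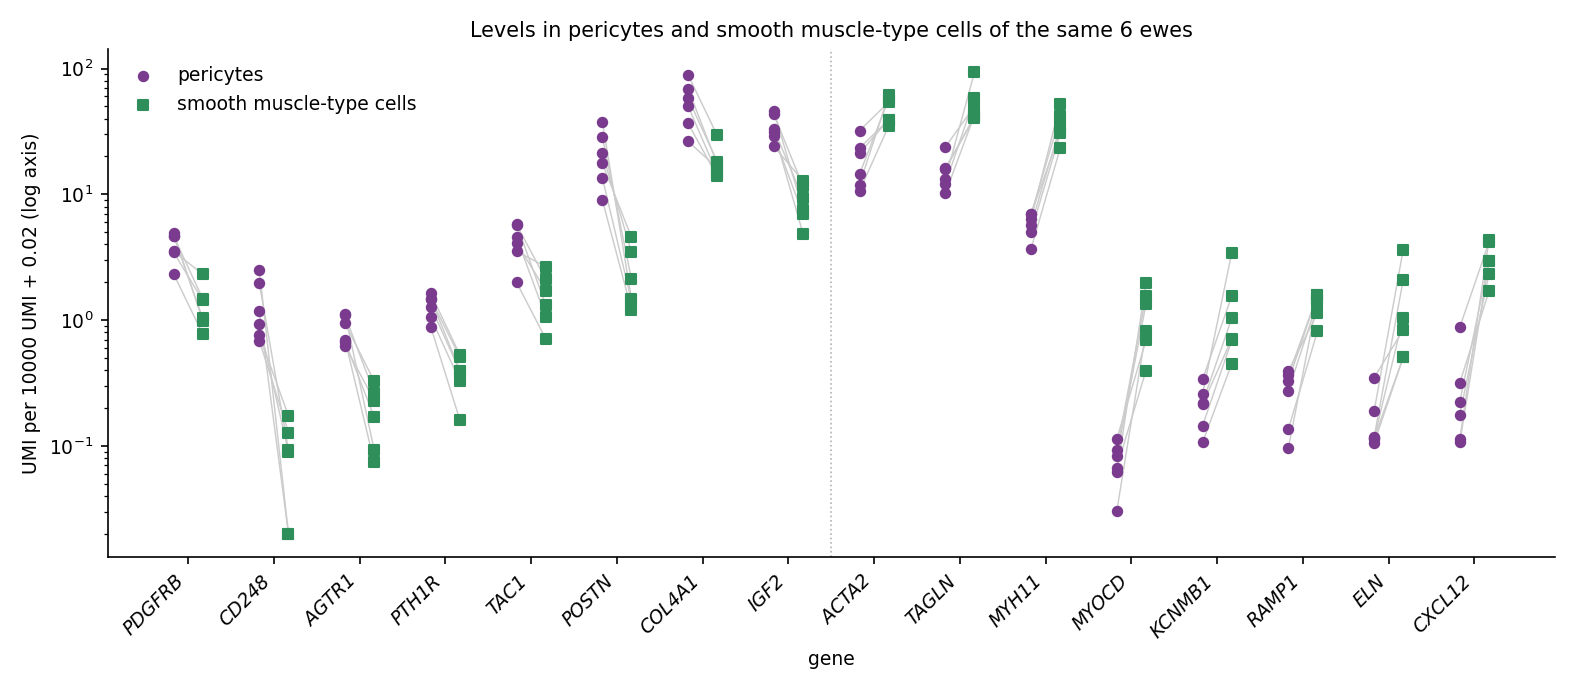
Levels of 16 genes in pericytes and smooth muscle-type cells (UMI per 10000 UMI + 0.02, log axis); each point is 1 ewe. The 8 genes on the left are higher in pericytes and the 8 on the right higher in smooth muscle-type cells, each with an adjusted p under 0.05 in the edgeR quasi-likelihood test.

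Ion channels and calcium handling genes that passed were all lower in pericytes. Of 22 tested, none was higher and 6 were lower, against 8.34% and 3.06% of all genes, and 16 did not pass. The median log2 difference was −0.90. Without TMM factors 8 were lower, against 4.55% of all genes. The large calcium-activated potassium channel was lower in both of its subunits, KCNMA1 by −3.58 ± 0.54 (adjusted p = 0.00027) and KCNMB1 by −2.55 ± 0.45 (adjusted p = 0.0018). KCNAB1, a subunit of voltage-gated channels, was lower by −2.31 ± 0.28 (adjusted p = 4.7e-05), and the calcium pump ATP2A2 by −0.84 ± 0.11 (adjusted p = 0.0014). The calcium release channel ITPR1 was lower by −1.24 ± 0.22 (adjusted p = 0.0061) in 5 of 6 ewes. The ATP-sensitive channel genes KCNJ8 and ABCC9 belong to the gate and were not tested.

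Receptors for vasoactive signals divided between the classes. The angiotensin II receptor AGTR1 stood at 0.676, 1.09 and 0.655 in HLS and 1.07, 0.921 and 0.608 in LLS, and in smooth muscle-type cells at 0.0539, 0.0724 and 0.149 and at 0.243, 0.307 and 0.209, a log2 difference of 2.28 ± 0.40 (adjusted p = 0.00019). The parathyroid hormone receptor PTH1R stood at 1.45, 1.61 and 1.26 in HLS and 1.45, 1.03 and 0.862 in LLS, against 0.507 or less in smooth muscle-type cells, a difference of 1.76 ± 0.24 (adjusted p = 8.2e-06). Pericytes of every ewe were above smooth muscle-type cells of every ewe for both receptors.

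Smooth muscle-type cells were higher for another set. RAMP1, the partner protein of the calcitonin gene-related peptide receptor, stood at 0.307, 0.116 and 0.343 in HLS pericytes and 0.0758, 0.254 and 0.375 in LLS, and at 0.797 to 1.56 in smooth muscle-type cells, with a log2 difference of −2.52 ± 0.27 (adjusted p = 8.5e-06). NPY1R, the neuropeptide Y receptor, was lower in pericytes by −3.66 ± 0.69 (adjusted p = 0.0022) in 5 of 6 ewes. The endothelin A receptor EDNRA was lower by −1.20 ± 0.23 (adjusted p = 0.0093), a call that did not hold without LLS3. The endothelin B receptor EDNRB did not pass (0.83 ± 0.44, adjusted p = 0.12), and its pericyte level was highest in HLS2 and LLS1, at 1.78 and 2.23 against 1.12 or less in the others. Of 35 vasoactive receptors tested, 3 were higher in pericytes and 3 lower, with a median of 0.01. The 3 higher receptors are near the background of 8.34% of all genes, and the 3 lower are above that of 3.06%. Without TMM factors the counts were also 3 and 3, against 3.74% and 4.55% of all genes.

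The nitric oxide receptor was present in both mural classes. Its beta subunit GUCY1B1 stood at 3.69, 5.13 and 4.12 in HLS and 5.82, 5.08 and 5.70 in LLS, and at 3.14 ± 0.990 (SD, n = 6) in smooth muscle-type cells, a log2 difference of 0.64 ± 0.29 that passed with TMM factors (adjusted p = 0.041) and not without them (adjusted p = 0.15), nor when any of 5 ewes was left out. The alpha subunit GUCY1A1 stood at 3.53 ± 1.17 and 3.16 ± 1.34 and did not pass. Downstream of them the cyclic GMP-dependent kinase PRKG1 did not pass (−0.94, adjusted p = 0.095), although it passed in 7 alternatives. The phosphodiesterase PDE3A was lower in pericytes by −1.60 ± 0.20 (adjusted p = 0.00011), at 1.37 ± 0.464 against 3.93 ± 1.30. Of 17 cyclic nucleotide genes tested, 2 were higher and 2 lower in pericytes, and without TMM factors none was higher and 4 were lower. Over all genes 8.34% were higher and 3.06% lower, and without TMM factors 3.74% and 4.55%.

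**Figure D4:**
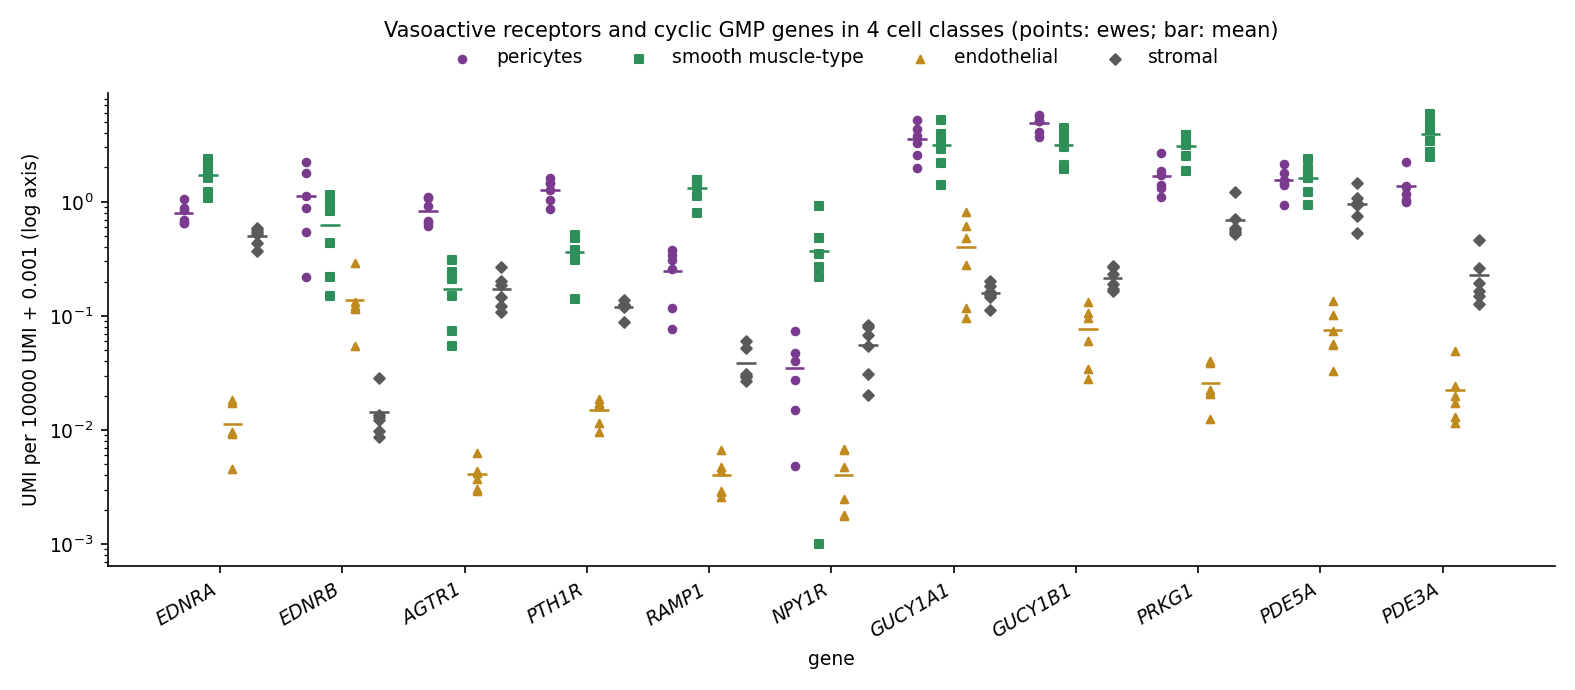
Levels of vasoactive receptors and cyclic GMP genes in pericytes, smooth muscle-type, endothelial and stromal cells (UMI per 10000 UMI + 0.001, log axis). Points are ewes and bars are means. Pericytes are above all other classes for AGTR1 and PTH1R and below smooth muscle-type cells for RAMP1.

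The receptors and cyclic nucleotide genes were then compared with the endothelial and stromal gates. Of 14126 genes tested, 6985 differed from endothelial cells (49.4%; 3315 higher in pericytes, 23.5%, and 3670 lower, 26%) and 4357 from stromal cells (30.8%; 2099 higher, 14.9%, and 2258 lower, 16%; edgeR quasi-likelihood test, adjusted p under 0.05). Without TMM factors 3929 were higher and 3037 lower than in endothelial cells, and 2350 higher and 2084 lower than in stromal cells. Without HLS2 and LLS1 the totals were 6711 and 3559 genes, and without HLS3 alone 6319 and 3855. Of the 35 vasoactive receptors, 25 were higher and 4 lower than in endothelial cells, with a median log2 difference of 2.93, and 15 were higher and 5 lower than in stromal cells. Of 17 cyclic nucleotide genes, 12 were higher and 3 lower than in endothelial cells, and 12 were higher and 1 lower than in stromal cells. GUCY1B1 was higher by 6.09 than in endothelial cells (adjusted p = 6.7e-14) and by 4.54 than in stromal cells (adjusted p = 1.3e-11). EDNRB was higher by 2.99 than in endothelial cells (adjusted p = 2.2e-08) and by 6.34 than in stromal cells (adjusted p = 6.6e-12), and AGTR1 by 7.98 and 2.31. For PDE5A, which degrades cyclic GMP, the stromal difference was 0.70 ± 0.19 (adjusted p = 0.0094) and did not hold without the ewe block.

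The mural markers not used in the gate were checked in the same way. Of 21 tested, 18 were higher and 2 lower in pericytes than in endothelial cells (median log2 difference 5.27). Against stromal cells 19 were higher and 1 lower (median 2.82). The shares over all genes were 23.5% and 26% against endothelial cells, and 14.9% and 16% against stromal cells. NOTCH3 was higher by 7.80 ± 0.25 (adjusted p = 4.2e-17) and 4.13 ± 0.20 (adjusted p = 2.9e-13), and PDGFRB by 7.56 ± 0.29 and 2.63. The 15 endothelial markers tested were all lower in pericytes than in endothelial cells. The lower markers were ADGRF5 and EPAS1 against endothelial cells and FOXF2 against stromal cells. These values bear on the class as mural, which the non-gate markers PDGFRB, NOTCH3, CSPG4 and MCAM do not contradict. Of those named, only PDGFRB passed against smooth muscle-type cells, so the others do not tell the 2 mural classes apart.

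Several basement membrane genes were higher in pericytes than in smooth muscle-type cells. COL4A1 stood at 26.3, 68.8 and 50.3 in HLS and 88.9, 36.6 and 57.9 in LLS, and in smooth muscle-type cells at 16.2, 17.4 and 14.6 and at 29.4, 13.9 and 18.2, a log2 difference of 1.44 ± 0.20 (adjusted p = 4.3e-06). Its partner chain COL4A2 was higher by 1.35 ± 0.18 (adjusted p = 2.8e-06), the laminin chain LAMB1 by 1.31 ± 0.18 (adjusted p = 5.4e-06) and nidogen, NID1, which links laminin and collagen IV, by 1.96 ± 0.39 (adjusted p = 0.00052). Each of these was higher in pericytes in all 6 ewes, although the COL4A1 ranges overlapped, since HLS1 pericytes lay below the smooth muscle-type cells of LLS1. Of 47 matrix genes tested, 17 were higher in pericytes and 7 lower, and without TMM factors 13 and 7. The median log2 difference was 0.50. Among all genes the shares were 8.34% and 3.06%, and 3.74% and 4.55% without TMM factors.

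POSTN was higher in pericytes than in each other class. Periostin, its product, a matrix protein that binds integrins, stood at 13.6, 28.8 and 9 in HLS and 37.8, 21.2 and 17.6 in LLS, and in smooth muscle-type cells at 1.40, 2.10 and 1.19 and at 1.46, 3.45 and 4.53. The lowest pericyte value was above the highest of the other class, with a log2 difference of 2.96 ± 0.35 (adjusted p = 2.6e-06) that was 2.50 without HLS2 and LLS1. It was 7.49 ± 0.38 against endothelial cells and 4.72 against stromal cells, where POSTN stood at 0.116 ± 0.0575 and 0.817 ± 0.378. COL18A1, the source of endostatin, was higher than in each other class, by 0.76 ± 0.17, 3.16 and 3.50, and stood at 10.3 ± 2.30 in pericytes.

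Other matrix genes were shared with endothelium or stroma. COL4A1 stood at 31.6 ± 20 in endothelial cells, and the difference of pericytes from them was 0.80 ± 0.19 (adjusted p = 0.0015), which did not hold without the ewe block. LAMB1, SPARC and NID1 did not pass against stromal cells, at 0.21, 0.22 and 0.19, although each passed against smooth muscle-type and endothelial cells. The fibrillar collagen gene COL1A1 lay between the mean levels of stromal and endothelial cells. In pericytes it stood at 12.4, 13.9 and 59.9 in HLS and 11.6, 17.7 and 20 in LLS. It stood at 75.4 ± 30.9 in stromal cells and at 0.823 ± 0.398 in endothelial cells. COL1A1 was lower than in stromal cells by −1.94 (adjusted p = 0.00012). COL3A1 was lower than in stromal cells by −1.06 ± 0.33 (adjusted p = 0.014) in 5 of 6 ewes, and by −0.688 without HLS2 and LLS1 (adjusted p = 0.0954).

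The 7 matrix genes lower in pericytes were SPARCL1, ELN, TNC and the basement membrane chains COL4A4, COL4A5, COL4A6 and LAMA3, so the basement membrane list moved in both directions. ELN, elastin, stood at 0.0848 to 0.327 in pericytes and 0.486 to 3.62 in smooth muscle-type cells, a log2 difference of −3.63 ± 0.50 (adjusted p = 0.00011). MFAP4, a microfibril protein, was lower by −3.95 ± 0.45 (adjusted p = 9.8e-06), SPARCL1 by −1.98 ± 0.15 (adjusted p = 3e-07) and the collagen IV chain COL4A5 by −2.16 ± 0.33 (adjusted p = 0.00062). SPARC, the related gene to SPARCL1, went the other way by 1.03 ± 0.18 (adjusted p = 3.7e-05).

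**Figure D5:**
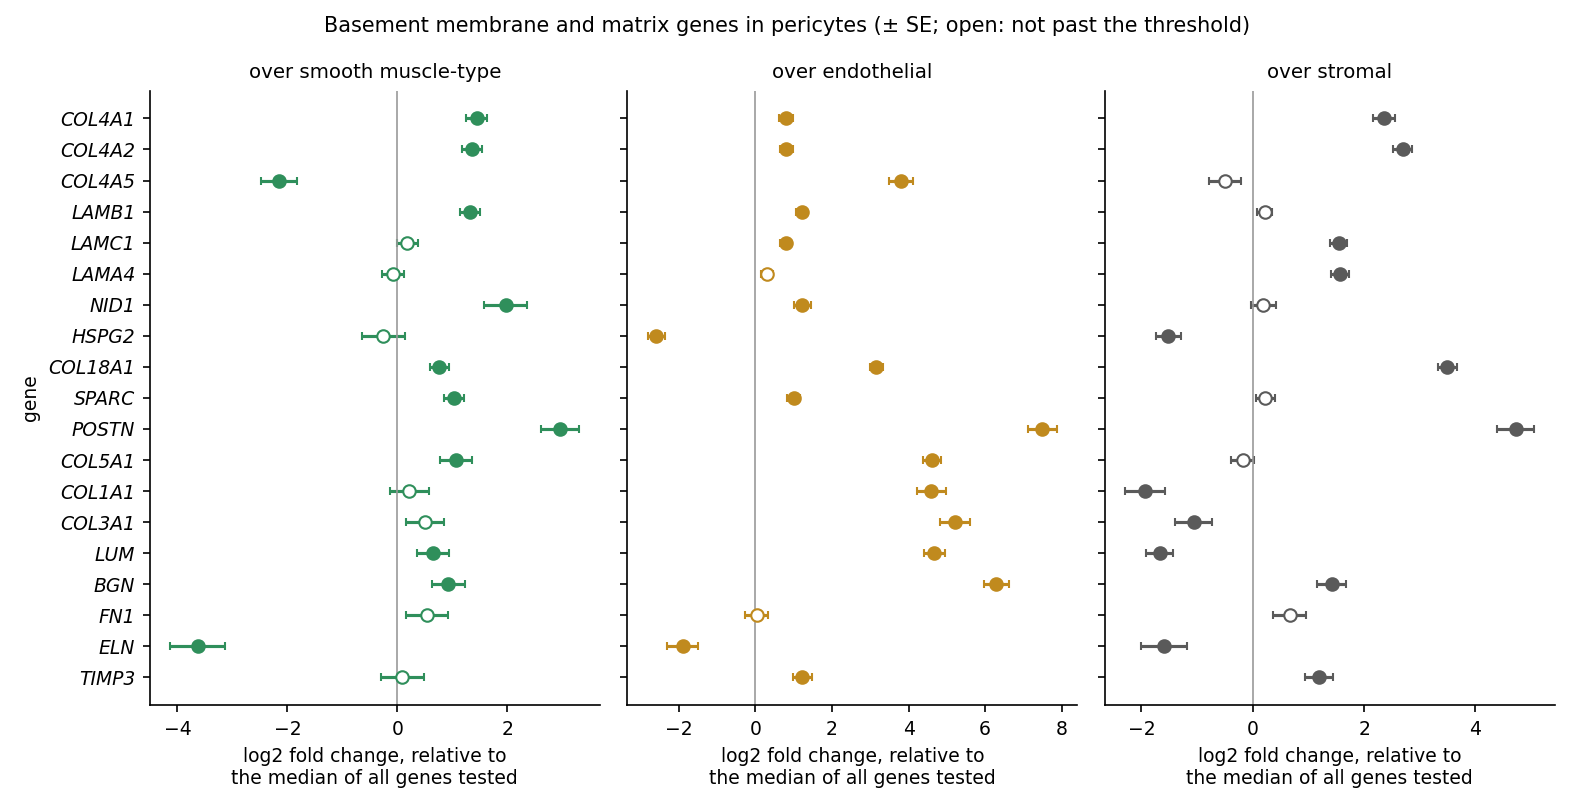
Log2 differences of pericytes from smooth muscle-type, endothelial and stromal cells for 19 matrix genes, relative to the median of all genes tested, ± SE. Filled points have an adjusted p under 0.05 in the edgeR quasi-likelihood test and open points do not. POSTN and COL18A1 lie above 0 against all 3 classes, and ELN lies below 0 against smooth muscle-type cells.

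Growth factor genes and their receptors differed in both directions between pericytes and endothelial cells. Of 44 genes of PDGF, TGF-beta and angiopoietin signalling tested, 18 were higher in pericytes and 18 lower. Among all genes 23.5% were higher and 26% lower. PDGFB, the ligand, stood at 0.193 ± 0.0679 in pericytes and 0.980 ± 0.592 in endothelial cells, a log2 difference of −2.38 ± 0.24 (adjusted p = 5.8e-09), while its receptor PDGFRB was the reverse. The angiopoietin receptor TEK was lower by −3.96 ± 0.27 (adjusted p = 9e-12). ANGPT1, the mural ligand of TEK, stood at 0.235 ± 0.0889 in pericytes and was higher than in endothelial cells by 7.26 ± 0.39 (adjusted p = 1.8e-13), and it did not pass against smooth muscle-type cells (−1.11 ± 0.40, adjusted p = 0.2). ANGPT2 was lower in pericytes than in endothelial cells by −1.58 ± 0.28 (adjusted p = 2.9e-05).

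IGF2, an insulin-like growth factor, was higher in pericytes than in each other class. It stood at 33.0, 43.2 and 46.0 in HLS and 31.5, 24.1 and 29.3 in LLS, and in smooth muscle-type cells at 9.27, 11.6 and 7.51 and at 4.86, 12.8 and 6.89. The classes did not overlap, and the log2 difference was 1.89 ± 0.27 (adjusted p = 1.2e-05), with 3.36 against endothelial cells and 1.67 against stromal cells. Of the 44 genes of PDGF, TGF-beta and angiopoietin signalling tested, 3 were higher in pericytes than in smooth muscle-type cells and 8 lower, with a median of −0.24, and without TMM factors 2 and 9. Among all genes 8.34% were higher and 3.06% lower, and 3.74% and 4.55% without TMM factors. The lower side of the list was above the share of all genes with both scalings. The higher side was below it with TMM factors only. The lower ones included the chemokine CXCL12 by −3.73 ± 0.43 (adjusted p = 1.4e-05), its scavenger receptor ACKR3 by −1.91 ± 0.41 (adjusted p = 0.011), the guidance factor SLIT3 by −2.97 ± 0.50 (adjusted p = 0.001), the binding protein IGFBP2 by −2.43 ± 0.35 (adjusted p = 0.00025) and PDGFC by −2.59 ± 0.26 (adjusted p = 4e-06).

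Notch genes differed by member. Of 19 tested, 4 were higher in pericytes than in smooth muscle-type cells and 1 lower, and without TMM factors 2 and 3. Among all genes the shares were 8.34% and 3.06%, and 3.74% and 4.55% without TMM factors. NOTCH1 was higher in pericytes than in smooth muscle-type cells by 1.27 ± 0.30 (adjusted p = 0.0014), and HEY2, a Notch target of arterial mural cells, was lower by −3.06 ± 0.38 (adjusted p = 3.6e-05). HEYL passed with TMM factors (adjusted p = 0.045) and not without them (adjusted p = 0.18), nor when any of 5 ewes was left out, and DTX1, a Notch regulator, passed with 6 ewes (2.23 ± 0.57, adjusted p = 0.0056) and not without HLS2 and LLS1 (adjusted p = 0.0692). Against endothelial cells 9 of the 19 were higher and 7 lower, with a median of 0.16. Against stromal cells 12 were higher and none lower, with a median of 1.17. The shares over all genes were 23.5% higher and 26% lower against endothelial cells, and 14.9% and 16% against stromal cells. The ligand DLL4 stood at 0.0631 ± 0.0212 in pericytes and 0.941 ± 0.228 in endothelial cells, a difference of −3.98 ± 0.27 (adjusted p = 1.1e-11), while the ligand JAG1 did not pass (0.16, adjusted p = 0.44).

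Among genes with an average of at least 16 CPM and 1 direction in all 6 ewes, the largest rises from smooth muscle-type cells included a peptidase and a lectin beside CD248. CPM, a membrane carboxypeptidase, stood at 0.472, 1.29 and 0.764 in HLS and 1.88, 0.509 and 1.05 in LLS, and at 0.279 or less in smooth muscle-type cells of every ewe, and was higher by 3.66 ± 0.53 (adjusted p = 3.6e-05). The classes did not overlap. COLEC11, a collectin, stood at 1.85, 3.69 and 1.5 in HLS and 2.87, 0.582 and 0.664 in LLS, against 0.298 or less, and was higher by 3.86 ± 0.65 (adjusted p = 0.0002). PLAC9 was higher by 3.83 ± 1.07 (adjusted p = 0.014).

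For some of these genes the smooth muscle-type cells held almost no UMI. The ratios here pool UMI over ewes, so their intervals cover counting error only and leave out the spread between ewes. SPP1 had 5877 UMI in pericytes and 3 in smooth muscle-type cells, a ratio of 174 with a counting interval of 59.6 to 845, and most of these UMI came from HLS2 and LLS1. Those ewes gave 1902917 and 2637211 of the 8693698 pericyte UMI, but 29 and 10 of the 146 smooth muscle-type cells. The pooled ratio therefore also carries this uneven mix of ewes. CLSPN, a replication checkpoint gene, had 320 and 1, a ratio of 28.5 (5.07 to 1130). IFIT2, an interferon-induced gene, had 69 and 0, so it was at least 2.05-fold higher, taking 3 counts over the group as the limit. Within the same limits on CPM and direction, which leave out MYOCD, KCNMA1 and NPY1R, the 8 largest falls were the cadherin CDH13 by −5.14 ± 0.58 (adjusted p = 6.9e-06), ADIRF by −4.34 ± 0.43 (adjusted p = 2e-06), S100A4 by −4.20 ± 0.58 (adjusted p = 9.9e-05), MFAP4, LDLRAD4 by −3.92 ± 0.62 (adjusted p = 0.00047), CXCL12, ELN and CSRP2, a LIM protein of smooth muscle, by −3.25 ± 0.28 (adjusted p = 3.8e-07).

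The counts of the other gene groups are read against 8.34% higher and 3.06% lower over all genes. Without TMM factors those shares were 3.74% and 4.55%. Of 34 mural transcription factors, 3 were higher in pericytes and 4 lower (2 and 6 without TMM factors). With TMM factors the higher share was near that of all genes. HIC1, a repressor expressed in mesenchymal progenitors, was higher by 1.22 ± 0.28 (adjusted p = 0.0013). Of 31 integrins and adhesion genes 5 were higher and 6 lower (5 and 9 without TMM factors), and the split ran within the integrins: ITGA1, a collagen receptor chain, was higher by 0.74 ± 0.22 (adjusted p = 0.0039) and ITGA7, a laminin receptor chain, lower by −1.31 ± 0.20 (adjusted p = 0.0017). Of 24 mitochondrial and hypoxia-linked genes 2 were higher and 1 lower (2 and 3 without TMM factors), and the 2 were the glycolytic enzyme ENO1 (0.89 ± 0.17, adjusted p = 0.00011) and NDUFA4L2. The ENO1 call did not hold with smooth muscle-type cells chosen without an RGS5 minimum.

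Stress, immune and hormone genes were examined as well. Of 31 immediate early and stress genes 6 were higher and 4 lower (6 and 7 without TMM factors); the chaperone HSPA8 was higher by 0.90 ± 0.18 (adjusted p = 0.00021) and the nuclear receptor NR4A1 lower by −1.13 ± 0.15 (adjusted p = 0.00053), while FOS did not pass. Of 29 inflammatory genes 1 was higher and 4 lower (none and 4 without TMM factors), among the lower the interleukin 1 receptor IL1R1 by −1.48 ± 0.26 (adjusted p = 0.0037) in 5 of 6 ewes, a call that did not hold without the ewe block. Of 17 receptors for steroids, gonadotrophins and growth hormone none was higher and 1, the glucocorticoid receptor NR3C1, was lower (none and 2 without TMM factors); the estrogen receptor ESR1 stood at 0.305 ± 0.294 in pericytes and 0.371 ± 0.259 in smooth muscle-type cells and did not pass (adjusted p = 0.66). Of 19 RGS and G protein genes tested 1 was higher and 1 lower (none and 1 without TMM factors). Cell cycle genes were higher for 6 of 20 and lower for none (3 and none without TMM factors), with PCNA at 1.37 ± 0.30 (adjusted p = 0.00096). The summed cell cycle list stood at 35.05 in LLS3 and 5.92 in LLS2.

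Markers of other cell types were also compared between the mural classes. Their counts are read against 8.34% higher and 3.06% lower over all genes, and 3.74% and 4.55% without TMM factors. Against smooth muscle-type cells 2 of 15 endothelial markers were higher and none lower (none in either direction without TMM factors), 1 of 13 fibroblast and stromal markers was higher (none without TMM factors), and none of 13 immune, 11 theca or 6 epithelial and Schwann cell markers differed. Of 15 granulosa markers 1 was higher and 1 lower. TAC1, the precursor of the peptide substance P, is not a listed marker of these types and was higher in pericytes by 1.47 ± 0.27 (adjusted p = 0.00021), at 3.50, 5.76 and 4.55 in HLS and 4.09, 1.98 and 5.72 in LLS against 1.58 ± 0.715 in smooth muscle-type cells.

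Within these limits, the largest differences from endothelial cells included mural and peptide genes on one side and endothelial identity on the other. TAC1 was higher by 8.70 ± 0.30, AGTR1 by 7.98, NDUFA4L2 by 7.94 ± 0.45, NOTCH3 by 7.80, and OLFML1, PRRX2 and RASL12 by 7.76, 7.68 and 7.60. The lower genes were NOS3, the endothelial nitric oxide synthase, by −6.21 ± 0.32 (adjusted p = 6.1e-14), TLL1 by −6.12, ESM1 by −6.02, CD300LG by −5.87, the junction cadherin CDH5 by −5.78 ± 0.27, SLCO2A1 by −5.76, and APLN and SEMA6B by −5.75 each. All of these passed the test and had 1 direction in 6 of 6 ewes.

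Against stromal cells, within these limits, the largest rises included ITGA7 and ODAD3 with 6.47 each, EDNRB with 6.34, the complement protease MASP1 with 6.18, NRGN with 5.76, the proton-sensing receptor GPR4 with 5.36 and RNF152 with 5.14. The largest falls were ALPL, alkaline phosphatase, by −5.37, ITGBL1 by −4.32, GSTA1 and CRABP1 by −4.31 each, COL4A4 by −4.16, ANGPTL5 by −4.06, and podoplanin, PDPN, and SERPINF1 by −3.88 each. ACTA2 and MYH11 did not pass against stromal cells, at 0.58 and 0.22, with ACTA2 at 12.7 in the stromal gate.

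Between HLS and LLS, no gene of the pericytes passed. Of 9621 genes tested on the 6 sums, 0 had an adjusted p under 0.05 (0%, edgeR quasi-likelihood test), 199 had an unadjusted p under 0.05 (2.07%), and 763 had groups that did not overlap (7.93%). DESeq2 called 1 gene, and edgeR called 0 without HLS2 and LLS1 (334 at an unadjusted p under 0.05). No list had a member called in either direction; the epithelial and Schwann cell list had 0 members tested here and the immune list 3.

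The genes nearest the threshold with groups that did not overlap are given as values. SERPINE2, a protease inhibitor of the extracellular space, stood at 1.89, 1.64 and 5.68 in HLS and 1, 1.20 and 0.926 in LLS (log2 difference of HLS from LLS 1.61 ± 0.42, adjusted p = 0.999 with edgeR), with HLS3 far above the rest. It is also the most abundant granulosa marker in these cells, and that list summed to 6.495, 3.799 and 7.796 in HLS and 1.998, 4.507 and 2.396 in LLS, with a median log2 difference of 0.71 over the 7 members tested; its part in the SERPINE2 values was not tested. HTATIP2 stood at 0.291, 0.252 and 0.265 in HLS and 0.152, 0.109 and 0.141 in LLS (1.09 ± 0.29, adjusted p = 0.999 with edgeR). The other 3 of the higher side were CHCHD5, DNTTIP1 and MMP23B, at 0.86, 0.85 and 0.79, with no p below the threshold.

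On the lower side the same held. THBS1, the matrix protein thrombospondin 1 that restrains vessel growth, stood at 2.46, 4.16 and 3.77 in HLS and 4.88, 7.17 and 10 in LLS (−1.01 ± 0.30, adjusted p = 0.999 with edgeR). ANKRD1, a mechanically responsive ankyrin repeat gene, stood at 0, 0.0473 and 0.0312 in HLS and 0.265, 0.327 and 0.488 in LLS; it was the 1 gene called by DESeq2 (adjusted p = 0.000385) and it was not called by edgeR with the filter on low counts (adjusted p = 0.999). FSIP1, CSAD and COBLL1 stood at −1.28, −1.11 and −0.73 and did not pass. With no filter on low counts edgeR called 20 genes, among them ANKRD1, SERPINE2 and FSIP1.

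The difference of pericytes from smooth muscle-type cells was also compared between HLS and LLS. Of 7678 genes tested for this interaction, 0 passed with edgeR (0%), 214 had an unadjusted p under 0.05 (2.79%), DESeq2 called 0, and edgeR called 0 without HLS2 and LLS1 (182 unadjusted).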

How the data were processed

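Ovaries of 6 ewes gave 1 Chromium Single Cell 3′ v3 library each. The authors made the deposited counts, whole UMI per gene and barcode, with Cell Ranger 5.0.0 (per the file headers), which aligns with STAR; the genome build was not given in the sources used here. The tables held 30574 genes and 52290 barcodes. Retained barcodes (38465) and classes were set by the limits in the text; the further limits in the study's methods (200 genes, a log ratio of genes to UMI of 0.7, 5% haemoglobin) left 38464. Doublets were not removed in the main analysis. The endothelial class had at least 5 UMI of PECAM1 and KDR, at least 3 times RGS5, and none of PTPRC or PDGFRA; the stromal class had at least 5 UMI of DCN, at least 3 times the other gate genes, and at least 1 of PDGFRA. UMI were summed per ewe and class (24 sums) and fitted with edgeR 4.0.16 (filterByExpr, TMM, quasi-likelihood, ewe as a block between classes), with adjustment over all genes. The 13 gate genes were left out between classes. From each list up to 8 members with the smallest p and any defining marker could be named, and beyond the lists the 8 largest rises and falls. TAC1 against smooth muscle-type cells, and HGF, CD34, HIF1A, FOS, PTGDS and SPP1 by ewe, were named after their values were seen. A gene the rule would name is not reported here. Members and lists were chosen with earlier results of these data known. Alternatives were other gates and mitochondrial limits, thinning to 2000 UMI, Scrublet, scaling, DESeq2 1.42.0, filters, blocks and each ewe left out. Scripts were tested on simulated data. Python 3.11.15, scanpy 1.11.5, scipy 1.17.1 and R 4.3.3 were used.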

Additional observations from a re-analysis of the deposited data

Results flagged for a closer look

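A value was picked out where 1 ewe lay far from the other 5 by Dixon's rule, which compares the gap to the nearest ewe with the whole range, and 10 of 150 series of 6 ewe values did so; chance alone picks about 1 in 20. All values are UMI per 10000 UMI in pericytes, and no cause was tested. HLS3, which had the fewest pericytes (54), held 5 of the 10. Its fibroblast and stromal marker list summed to 116.4, with the next ewe at 56.26. COL1A1 in HLS3 stood at 59.87 (next 19.97), COL3A1 at 35.71 (next 16.51), ELN at 0.3274 (next 0.1682) and SERPINE2 at 5.676 (next 1.887). LLS1 was highest for BGN, a matrix proteoglycan, at 11.64 (next 7.136) and for ODAD3 at 2.351 (next 0.6148). LLS2 was highest for CXCL12 at 0.8602 (next 0.2988) and for PDE3A at 2.253 (next 1.388). HLS1 was highest for CRABP1, a retinoic acid binding protein, at 0.1415 (next 0.04846).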

How the results depend on the processing

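The alternatives were followed for 86 genes against smooth muscle-type cells, 40 against endothelial cells and 39 against stromal cells, and for 10 between HLS and LLS. None of these genes changed direction relative to the median under any alternative run. Of those called, 53 of 79, 38 of 39 and 32 of 35 between classes passed in every setting. Of those not called against smooth muscle-type cells, PRKG1 passed in 7 alternatives, NOTCH3 in 2 and EDNRB in 1. Against stromal cells ACTA2 passed in 2 and MYH11 in 1. Some genes named above, among them CSPG4, ANGPT1 and NR3C1 against smooth muscle-type cells, were not followed. The 1610 calls of 14126 genes against smooth muscle-type cells became 936 of 14598 with at least 10 UMI of RGS5, without a smooth muscle-type sum of LLS1. They were 803 of 10734 with cells thinned to 2000 UMI and 1008 of 7678 in a fit of the 2 mural classes alone. They were 3379 of 14572 with smooth muscle-type cells chosen without an RGS5 minimum. That alternative was chosen after seeing the data, as was leaving out HLS2 and LLS1. Leaving out each ewe in turn gave 1029 to 1329, with 1029 without HLS3 and 1038 without LLS3. With thinning 4251 of 10734 genes were called against endothelial cells (6985 of 14126 without it) and 2549 against stromal cells (4357 without it). Thinned sums hold fewer UMI. Between HLS and LLS the 0 calls became 1 with DESeq2 and 20 of 18843 genes with no filter on low counts. In the interaction they became 3 with at least 10 UMI of RGS5, without a smooth muscle-type sum of LLS1, and 4 with no filter. The cause was not tested. The pericyte share of the RGS5 gate, lower in HLS by −2.79 percentage points, reversed to 4.98 without HLS3, 5.72 without LLS1 and 0.605 without both HLS2 and LLS1, and ranged from −8.25 to 5.72 with each ewe left out. Replicate numbers did not pair the ewes: deviations of same-numbered pericyte sums correlated at −0.223, −0.0709 and 0.245, against 0.365 for HLS2 with LLS1. A fit with the replicate block called 0 of 10184 genes (232 at an unadjusted p under 0.05), and the block gave p = 0.5 and 1 for the 2 shares by exact permutation. The 146 smooth muscle-type cells and their 773253 UMI limit what could be detected against that class.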
